A study of Mus musculus with 14 samples.

Results

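The serpins are a superfamily of proteins named for serine protease inhibition, and 40 of the 17097 genes measured here were serpin genes. A gene was taken as a member where the platform annotation gave a probe set a single symbol of the serpin clades A to I. Of a gene's probe sets, the one brightest on average across the 14 arrays stood for the gene, a choice that 13 of the 40 needed. The members were 15 genes of clade A, among them the pseudogene Serpina4-ps1, 17 of clade B, 2 each of clades F and I, and 1 each of clades C, D, G and H. The reference annotation lists 69 serpin genes and pseudogenes, and the other 29, including the 3 of clade E, were not analysed here.

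An inhibitory serpin offers its target protease an exposed loop as bait. When the protease cuts the loop, the serpin changes shape and traps the enzyme in a complex that cannot be undone, so each molecule works once. Clade A serpins are mostly secreted proteins of plasma, clade B serpins mostly stay inside cells and several are typical of stratified epithelia, and some members of the family act as hormone carriers or chaperones and inhibit nothing.

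RNA came from epidermal cells of 15-week-old mice with skin in homeostasis, and was measured on 14 Affymetrix arrays. Mice were G9a WT or carried G9a cKO, a conditional knockout of the histone H3 lysine 9 methyltransferase G9a, encoded by Ehmt2. The arrays fell into 4 groups: cells of the bulge, the part of the hair follicle that holds stem cells, from WT (n = 3) and cKO (n = 4) mice, and cells of the interfollicular epidermis (IFE) from WT (n = 3) and cKO (n = 4) mice. The strain, the promoter that drives the knockout, the cells it acts in and the way the compartments were separated are not stated in the labels, nor is it said whether replicates are separate animals. P-values therefore measure the spread between these samples, which may be technical.

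Values are log2 signals, and every difference below is a difference of log2 signals tested with limma across all genes, with p adjusted by Benjamini and Hochberg and called under 0.05. The array medians lay between 5.76 and 5.84, and the number of arrays limits the precision. One Ehmt2 probe set read 9.51 to 9.78 on the WT arrays and 5.85 to 6.09 on the cKO arrays, while the other read 7.84 to 8.05 on every array. The 15 bulge stem cell markers examined were all called higher in bulge than in IFE cells in WT and in cKO, against 18.4% and 17.6% of all genes. On the first principal component, which held 72.5% of the variance, bulge cKO replicates 2 and 3 lay at -6.90 and -11.3, bulge cKO replicates 1 and 4 at -36.7 and -37.2, bulge WT arrays between -48.2 and -42.4 and IFE arrays between 23.0 and 40.1. For serpin genes, the main differences that rest on the cKO arrays are given with and without replicates 2 and 3 where that changes them. For the lists of other genes and markers, values are given with all arrays only. In RNA from many cells, fewer cells of a type and less RNA per cell cannot be told apart.

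Most serpin genes were dim in these cells. In 25 of the 40, the mean of every group lay below every array median, and in 10 every group mean lay above. The 10 were Serpina3i, Serpina11, Serpina12, Serpinb2, Serpinb5, Serpinb6a, Serpinb8, Serpind1, Serpinf1 and Serpinh1. In the remaining 5 (Serpina3n, Serpinb1a, Serpinb7, Serpinb11 and Serping1) the groups lay on both sides of the medians or between them. Serpins best known from plasma lay on both sides of the medians. The alpha-1-antitrypsin genes Serpina1a, Serpina1c and Serpina1d had group means between 3.50 and 4.10, Serpina1b between 5.37 and 5.45, and Serpinc1, which encodes antithrombin, between 4.58 and 4.75, while Serpind1, heparin cofactor II, lay between 5.97 and 6.27. Whether a dim signal lay above background was not tested, so for a gene with a group below the medians a log2 difference is not given as a fold of transcript.

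The clearest contrasts lay among clade B genes that sit side by side on chromosome 1. In the RefSeq annotation (GRCm38.p6) 12 clade B genes follow each other there without another protein-coding gene between them, in the order Serpinb5, Serpinb12, Serpinb13, Serpinb3a, Serpinb3d, Serpinb3b, Serpinb3c, Serpinb11, Serpinb7, Serpinb2, Serpinb10 and Serpinb8, and 7 of them were measured. Serpinb11 and its next neighbours Serpinb7 and Serpinb2 had opposite compartment patterns. The 200 bases before the most upstream annotated start of 4 of these genes are shown, with Serpina3n from the clade A genes of chromosome 12 beside them. These are the members whose signals differed most, and Serpinb8 closes the row. Serpinb2 has 2 starts in the promoter table, and its distances below are from the upstream one. Sequences are from RefSeq (GRCm38.p6), on the plus strand, 5′ to 3′. Capitals mark matches on either strand to TGANTCA, the core recognised by AP-1 factors, which reads the same on both strands, and to TATAAA, the TATA box.
Serpinb11, chr1:107362114-107362313: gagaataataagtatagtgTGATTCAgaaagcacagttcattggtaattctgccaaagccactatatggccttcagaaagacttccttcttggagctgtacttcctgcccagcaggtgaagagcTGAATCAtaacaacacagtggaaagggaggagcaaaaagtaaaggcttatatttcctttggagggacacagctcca
Serpinb7, chr1:107422489-107422688: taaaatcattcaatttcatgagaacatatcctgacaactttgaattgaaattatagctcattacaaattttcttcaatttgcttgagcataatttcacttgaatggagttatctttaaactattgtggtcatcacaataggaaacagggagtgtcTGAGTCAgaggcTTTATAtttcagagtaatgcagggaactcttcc
Serpinb2, chr1:107511223-107511422: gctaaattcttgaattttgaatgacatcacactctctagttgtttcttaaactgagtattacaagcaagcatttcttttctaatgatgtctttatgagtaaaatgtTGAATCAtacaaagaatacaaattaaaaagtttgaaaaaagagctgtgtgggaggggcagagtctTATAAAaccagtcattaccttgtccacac
Serpinb8, chr1:107589806-107590005: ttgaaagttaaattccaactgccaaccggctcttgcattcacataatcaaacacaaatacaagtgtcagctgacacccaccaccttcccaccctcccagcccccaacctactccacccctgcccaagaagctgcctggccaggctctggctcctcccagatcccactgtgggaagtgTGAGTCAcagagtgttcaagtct
Serpina3n, chr12:104406508-104406707: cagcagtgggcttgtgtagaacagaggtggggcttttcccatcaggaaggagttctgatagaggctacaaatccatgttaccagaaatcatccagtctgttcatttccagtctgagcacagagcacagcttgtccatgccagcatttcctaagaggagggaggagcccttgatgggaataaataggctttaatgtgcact

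The TGANTCA letters began 181 and 76 bases before the start of Serpinb11, 45 before that of Serpinb7, 94 before that of Serpinb2 and 23 before that of Serpinb8. TATAAA letters began 29 bases before the start of Serpinb2. In Serpinb7 the match lay on the other strand, read here as TTTATA from 33 bases before the start. The window of Serpina3n held neither. Of the 34 members with an entry in the promoter table, 6 (17.6%) held TGANTCA in this window, against 5.48% of all 32851 promoters in the table. For this and the motifs below, a member counts once, at its most upstream start. The table can hold several promoters of a gene, so the shares are not of the same unit. These 6 were Serpinb5, Serpinb12, Serpinb11, Serpinb7, Serpinb2 and Serpinb8, that is 6 of the 7 measured genes of the chromosome 1 row, Serpinb3a being the exception, and 0 of the 27 other members. The genes with the motif went in both directions between the compartments. TATAAA was found for 4 members (11.8%, against 9.96% of all promoters). The CCAAT box was found for 13 (38.2% against 29.3%). The STAT core TTCNNNGAA was found for 5 (14.7% against 5.49%), and the letters AGATAA of GATA factors also for 5 (14.7% against 7.8%), all on both strands. A match of letters is a description and no evidence of binding, and neighbouring serpin genes arose by duplication and share sequence.

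In WT skin, bulge and IFE cells differed in 10 of the 40 serpin genes, 6 higher and 4 lower in the bulge. This is 25.0% of the members, against 35.1% of all genes tested, of which 18.4% were higher and 16.6% lower. Of the 25 members dim in every group 1 was called (4.0%), and of the other 15 members 9 (60.0%). The share over all genes was not split by brightness. The median difference over the 40 members was -0.04, and over all genes -0.01. With each array centred on its median the calls were 5 higher and 6 lower in place of 6 and 4, and over all genes the share of calls that were higher moved from 52.6% to 42.5%.

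Serpinb11, a clade B serpin of epithelia, was the member most in favour of the bulge. It read 9.57, 9.35 and 9.17 on the bulge WT arrays and 5.12, 5.23 and 5.63 on the IFE WT arrays. The compartments did not overlap, and the IFE values lay below the array medians. The difference was 4.04 (SE 0.36, n = 3 and 3, limma adjusted p = 1.5e-05).

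Serpinb2, also known as plasminogen activator inhibitor 2, is made by keratinocytes as they differentiate. It had the opposite pattern: it read 6.48, 6.95 and 7.99 in bulge WT and 11.48, 10.91 and 11.57 in IFE WT. All values lay above the array medians and the lowest IFE array was well above the highest bulge array. The difference was -4.18 (SE 0.52, limma adjusted p = 9.21e-05), or 18.2-fold less signal in the bulge. Serpinb7, also known as megsin, whose loss in people causes a keratoderma of palms and soles, read 4.90, 4.49 and 4.70 in bulge WT and 8.62, 7.83 and 8.37 in IFE WT. Its bulge signal lay below the array medians, and the difference was -3.58 (SE 0.54, limma adjusted p = 3.33e-04).

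The outer genes of the row differed less. Serpinb8, an inhibitor of furin-like proteases, was higher in bulge WT, at 10.07 ± 0.07 (SD, n = 3), than in IFE WT, at 9.46 ± 0.06 (SD, n = 3), a difference of 0.61 (SE 0.086, limma adjusted p = 1.95e-04). Serpinb5, which encodes maspin, was bright everywhere and slightly lower in bulge WT, at 10.99 ± 0.07 (SD, n = 3) against 11.35 ± 0.07 (SD, n = 3), a difference of -0.36 (SE 0.061, limma adjusted p = 6.94e-04). Its other probe set, of a type that can also detect related sequences, gave -0.20 (limma adjusted p = 0.23 over all probe sets). Serpinb12 and Serpinb3a were dim and not called, with differences of -0.29 and -0.35, although their groups did not overlap. In all, 5 of the 7 measured genes of the row were called (71.4%, against 35.1% of all genes), 2 higher and 3 lower, and all 7 had groups that did not overlap, against 47.4% of all genes. Of the 10 clade B genes measured on chromosome 13, 1 was called, Serpinb6c, at -0.63 (SE 0.14, limma adjusted p = 0.00423), a dim gene related to the cathepsin G inhibitor Serpinb6a.

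**Figure D1:**
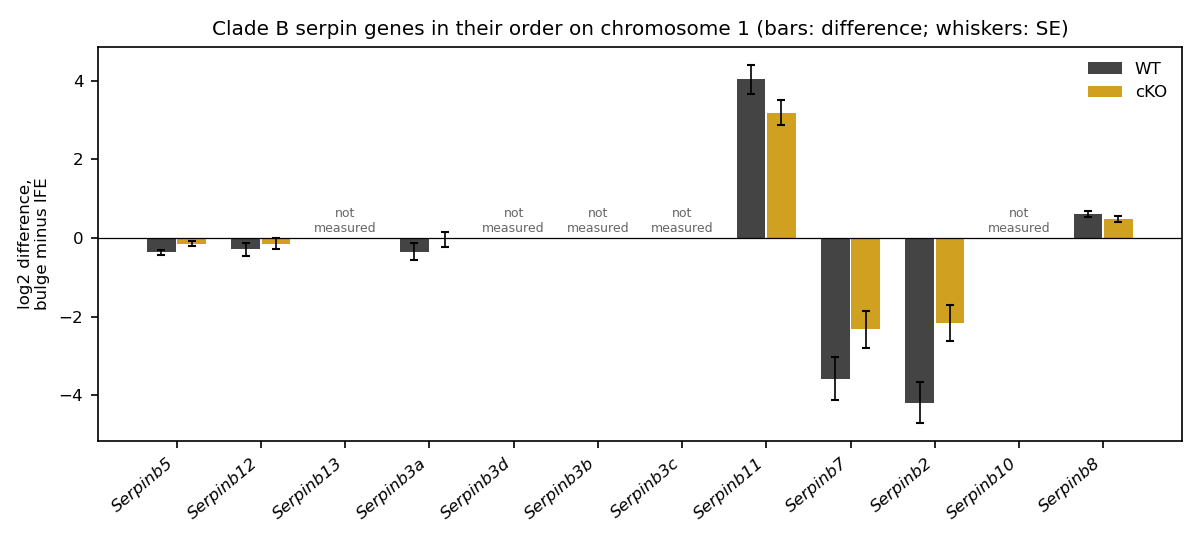
Log2 difference between bulge and IFE signal for the clade B genes in their order on chromosome 1, in WT (dark bars) and cKO (yellow bars), with standard errors as whiskers; genes without a bar are not measured. Serpinb11 stands at 4.04 in WT beside its neighbours Serpinb7 at -3.58 and Serpinb2 at -4.18, and the cKO bars are 3.19, -2.32 and -2.15, or 4.20, -3.57 and -3.25 without cKO replicates 2 and 3, which are not drawn.

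Outside clade B, the called members were all higher in the bulge. Serpinh1, the collagen chaperone Hsp47, which inhibits no protease, read 10.85, 10.92 and 10.68 in bulge WT and 9.38, 9.45 and 8.96 in IFE WT. The groups did not overlap, and the difference was 1.55 (SE 0.19, limma adjusted p = 6.76e-05), 2.94-fold in signal. Serping1, the C1 inhibitor of the complement and contact systems, was higher by 0.81 (SE 0.18, limma adjusted p = 0.00368), at 6.54 ± 0.19 (SD, n = 3) against 5.73 ± 0.13 (SD, n = 3). Serpinf1, which encodes the angiogenesis inhibitor PEDF, was higher by 0.18 (SE 0.055, limma adjusted p = 0.021), a call that was lost under 8 of 19 alternatives.

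In clade A, 1 of 15 genes was called between the WT compartments. Serpina3n, a mouse counterpart of the acute-phase inhibitor alpha-1-antichymotrypsin, read 8.31, 7.71 and 7.31 in bulge WT and 5.26, 5.12 and 5.32 in IFE WT. Every IFE array lay below the array medians and every bulge array above them, and the difference was 2.55 (SE 0.20, limma adjusted p = 7.45e-06). The annotation places Serpina3n at the end of a row of Serpina3 genes on chromosome 12, of which Serpina3a and Serpina3i were also measured. Serpina3i was at 0.58 (limma adjusted p = 0.0669) and Serpina3a at -0.11. Whether these probe sets also detect the other Serpina3 copies was not tested. The 30 members not called lay between -0.35 and 0.58, 26 of them within 0.2 of no difference, with 95% intervals that reached up to 0.75 to either side.

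**Figure D2:**
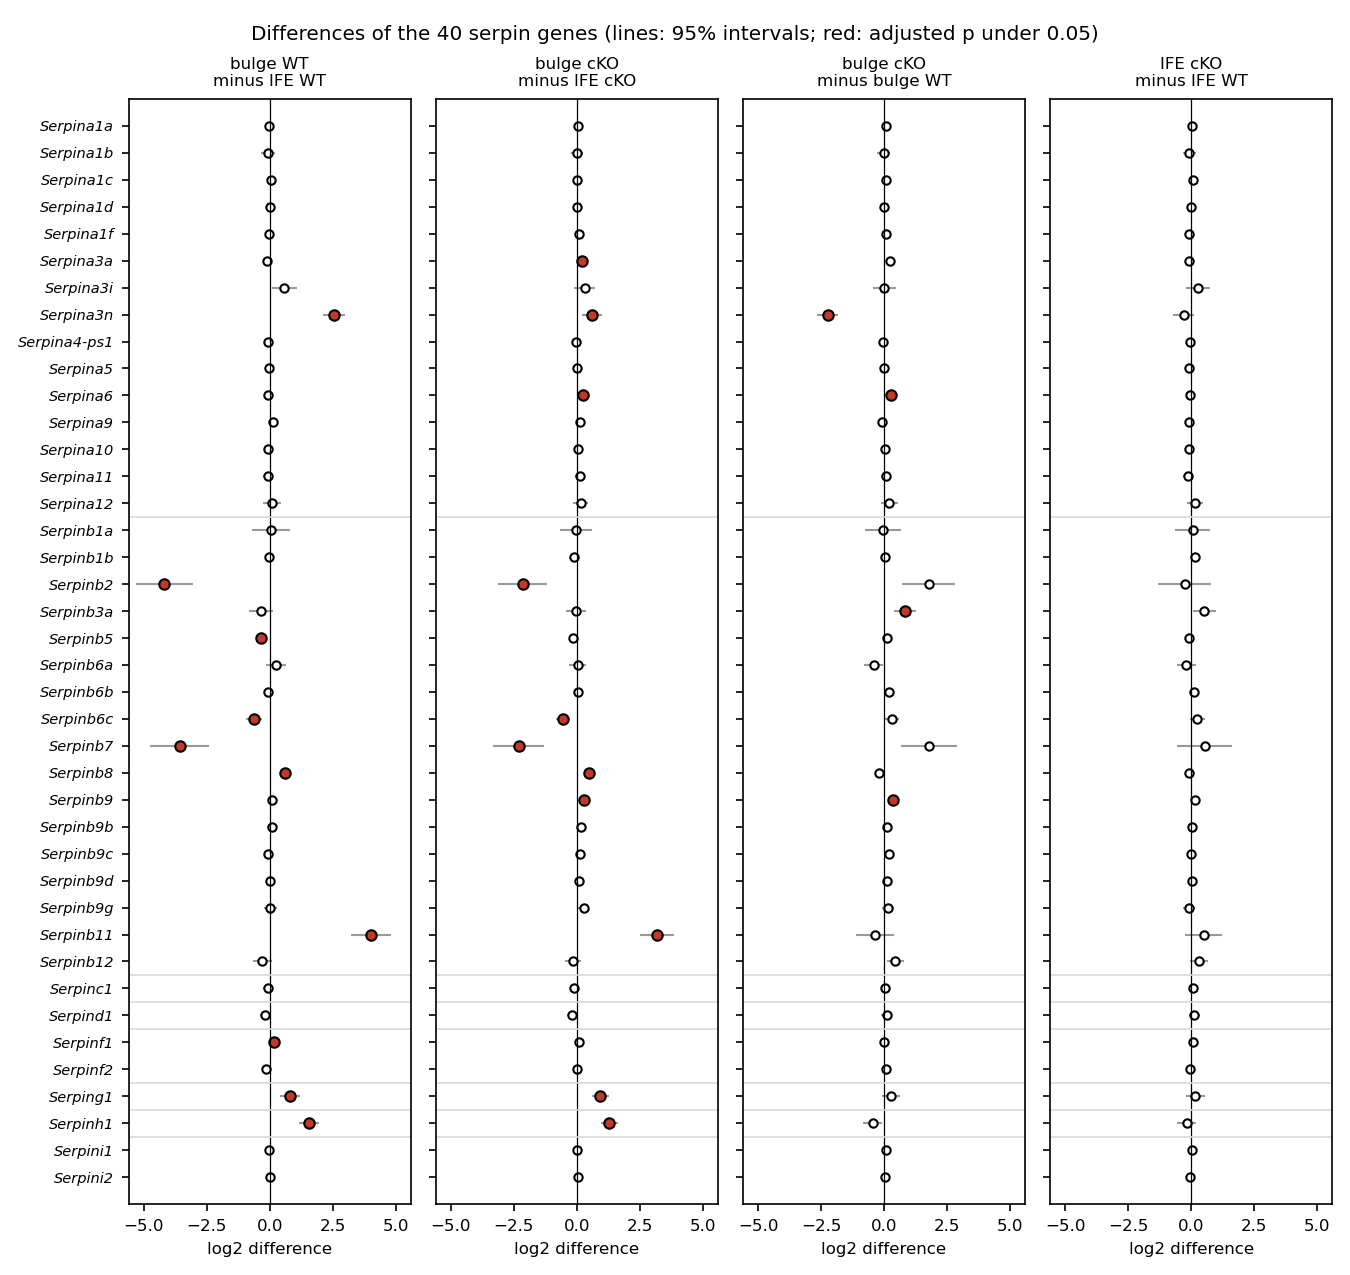
Log2 differences of the 40 serpin genes (points, with 95% intervals as lines) in the comparisons of compartments and of genotypes, grouped by clade; red points are called at an adjusted p under 0.05. Most members sit near 0, and the widest contrasts belong to Serpinb2, Serpinb7, Serpinb11, Serpinh1 and Serpina3n.

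Deletion of G9a was compared with WT in the bulge, where Serpina3n fell. It read 5.29, 5.53, 5.46 and 5.90 on the bulge cKO arrays, against 7.31 to 8.31 in bulge WT. All 4 cKO arrays lay below all 3 WT arrays, close to the array medians and to the IFE level. The difference was -2.23 (SE 0.19, n = 4 and 3, limma adjusted p = 1.22e-04). It was called under each of 20 alternatives, between -2.46 and -1.97. Several of the 20 could not test it: the gene has 1 probe set to choose, and a threshold of 0.1 loses no call. Without cKO replicates 2 and 3 the difference was -2.18 (limma adjusted p = 0.0185). The fall was thus as large without the bulge cKO arrays that stand apart on the first principal component. The comparison shares the bulge WT arrays with that of the WT compartments.

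In all, 4 of 40 members were called in the bulge (10.0%, against 3.84% of all genes), 3 of them higher (1.98% of all genes) and 1 lower (1.85% of all genes), and the median over the members was 0.07, against 0.01 over all genes. The 3 that rose were dim, with every array below the array medians. Serpina6, which encodes the corticosteroid carrier of plasma and inhibits no protease, read 4.37, 4.38 and 4.36 in WT and 4.67, 4.76, 4.59 and 4.58 in cKO (difference 0.28, SE 0.057, limma adjusted p = 0.0222). Serpinb9, an inhibitor of granzyme B, read 4.87, 4.82 and 4.76 in WT and 5.15, 5.09, 5.18 and 5.31 in cKO (difference 0.36, SE 0.075, limma adjusted p = 0.0248). Serpinb3a, the mouse relative of the squamous cell carcinoma antigens, read 4.30, 4.12 and 4.23 in WT and 4.79, 5.07, 4.92 and 5.51 in cKO (difference 0.85, SE 0.20, limma adjusted p = 0.0412).

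The cKO and WT arrays did not overlap for these 3 genes, and for 9 of the 40 members in all, against 18.5% of all genes. Their calls were fragile: without cKO replicates 2 and 3 the differences were 0.26, 0.41 and 0.93 with limma adjusted p of 0.276, 0.211 and 0.141, and the calls were lost under 6, 8 and 9 of 19 alternatives. The count of 4 went to 1 without bulge WT replicate 1 or 2, to 2 without bulge cKO replicate 2 or 3 and to 10 without bulge cKO replicate 4. A second Serpinb9 probe set gave 0.13 (limma adjusted p = 0.0938 over all probe sets). A second probe set of Serpinb8 was called lower in bulge cKO, at -0.60 (limma adjusted p = 0.0346 over all probe sets), while the one used gave -0.19 (adjusted p = 0.171).

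The IFE-high genes Serpinb2 and Serpinb7 had the largest positive differences in the bulge but were not called, and they are described because their values were seen. Serpinb2 read 7.65, 9.73, 9.54 and 8.71 in bulge cKO, against 6.48 to 7.99 in bulge WT, a difference of 1.77 (SE 0.49, 95% interval 0.71 to 2.84, limma adjusted p = 0.0617). Serpinb7 read 5.0, 7.65, 7.39 and 5.95 in bulge cKO, against 4.49 to 4.90 in bulge WT, a difference of 1.80 (SE 0.51, 95% interval 0.70 to 2.91, limma adjusted p = 0.0652). For both genes replicates 2 and 3 were the highest cKO arrays, and without them the differences were 1.05 (limma adjusted p = 0.558) and 0.78 (limma adjusted p = 0.468).

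Serpinb11 and Serpinh1 had the reverse order on these arrays. For Serpinb11, replicates 1 and 4 of bulge cKO gave 9.41 and 9.74, and replicates 2 and 3 gave 8.32 and 8.57 (difference from WT -0.35, limma adjusted p = 0.526; 0.21 without replicates 2 and 3). Serpinh1 read 10.62 and 10.71 on replicates 1 and 4 and 9.97 and 10.19 on replicates 2 and 3 (difference -0.44, limma adjusted p = 0.141; -0.15 without replicates 2 and 3). Replicates 2 and 3 thus lay nearer to IFE in all 4 genes. The 20 suprabasal keratinocyte markers averaged 7.63, 9.04, 8.84 and 8.44 on these arrays in the order of replicates, against 7.16 to 7.68 in bulge WT and 8.26 to 8.86 in IFE WT. That of the 15 bulge markers was 10.16, 9.44, 9.59 and 10.40, against 10.39 to 10.59 in bulge WT and 7.36 to 7.42 in IFE WT. The part of these markers in the values of these 4 genes was not tested. Serpina3n, in contrast, read 5.29 and 5.90 on replicates 1 and 4 and 5.53 and 5.46 on replicates 2 and 3, so its fall was as large without replicates 2 and 3.

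**Figure D3:**
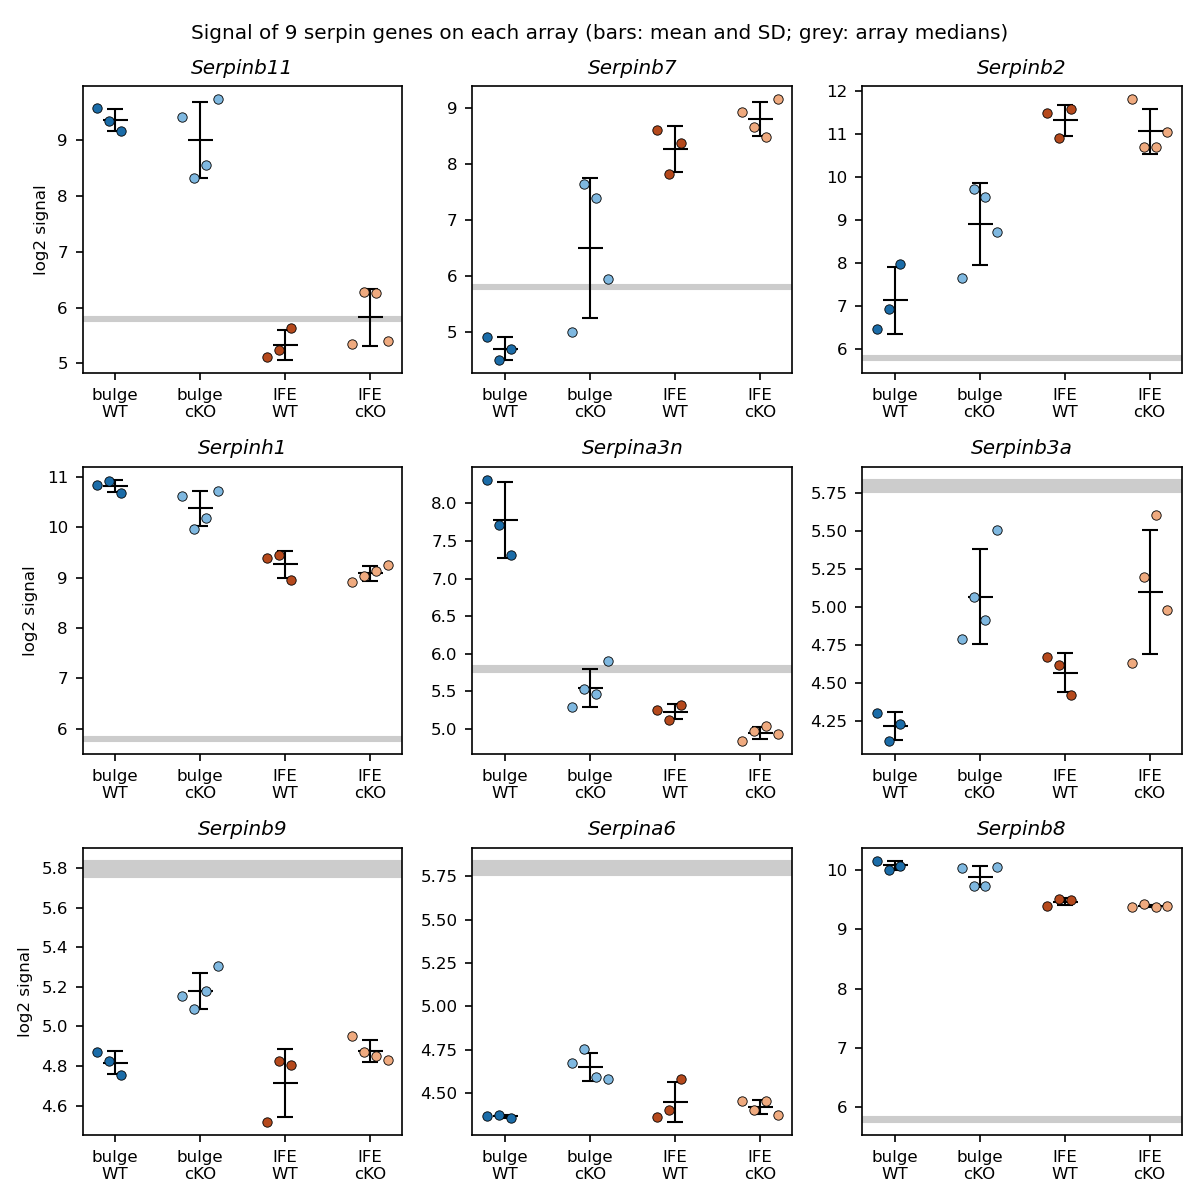
Log2 signal of 9 serpin genes on each array (points, in the order of replicates) in the 4 groups, with mean and SD as bars and the range of array medians in grey; the vertical scale differs between panels. The 4 bulge cKO arrays of Serpina3n lie together at 5.29 to 5.90, while those of Serpinb7 spread from 5.0 to 7.65.

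In the IFE no serpin gene was called between cKO and WT (0 of 40, against 0.497% of all genes). With limma, 1 member, Serpinb3a, had an unadjusted p under 0.05, against 1876 of the 17097 genes, named here because it was the only one. It read 4.67, 4.62 and 4.42 in IFE WT and 4.63, 5.20, 5.61 and 4.98 in IFE cKO, so the groups overlapped, and replicates 2 and 3 were again the highest. The differences of the 40 members lay between -0.28 and 0.54 with a median of 0.01 (all genes -0.01), and 32 were within 0.2 of no difference. The 95% intervals reached up to 1.10 to either side, widest for Serpinb7. Serpinb2 stayed high, at 11.81, 10.69, 10.69 and 11.05 in IFE cKO, and Serpinb7 at 8.93, 8.67, 8.48 and 9.17. Serpinb11 read 5.35 and 5.40 on IFE cKO replicates 1 and 4 and 6.28 and 6.26 on replicates 2 and 3, where the bulge markers averaged 7.85 and 7.90 against 7.32 and 7.34 on replicates 1 and 4; the part of these markers in the Serpinb11 values was not tested.

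Serpina3n, at 4.84, 4.97, 5.04 and 4.94 in IFE cKO, was below all IFE WT arrays, by 0.28 (SE 0.19, limma adjusted p = 0.66). Its knockout effect differed between the compartments: the bulge effect minus the IFE effect was -1.95 (SE 0.27, limma adjusted p = 0.0228). This was the only one of 40 members called for such a difference (2.5%, against 0.105% of all genes). The call was lost without cKO replicates 2 and 3 of both compartments, at -1.84 (adjusted p = 0.441), and under 8 further alternatives, with the difference between -2.18 and -1.68 throughout. In the IFE the signal lay below the array medians already in WT, and whether it lay above background was not tested. For Serpinb2 and Serpinb7 the differences of effects were 2.03 (limma adjusted p = 0.25) and 1.26 (limma adjusted p = 0.442), and 0.94 and 0.0016 without cKO replicates 2 and 3.

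Between the cKO compartments 11 of 40 members were called (27.5%, against 32.1% of all genes, 17.6% higher and 14.6% lower), 8 higher and 3 lower in the bulge. With each array centred on its median they were 8 higher and 6 lower, and the share of all calls that were higher moved from 54.7% to 39.6%. The median over the members was 0.05, against 0.03 over all genes. Of the 25 members dim in every group 4 were called (16.0%), and of the other 15 members 7 (46.7%). This comparison shares no array with the WT one but shares the bulge cKO arrays with the comparison of genotypes, so the values are set side by side only. In the same direction as in WT, 8 genes were called in both: Serpina3n, Serpinb2, Serpinb6c, Serpinb7, Serpinb8, Serpinb11, Serping1 and Serpinh1. In 7 of the 8 the cKO difference was the smaller, but without cKO replicates 2 and 3 in only 3 of the 8 (Serpina3n, Serpinb2 and Serpinb7).

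Serpinb11 differed by 3.19 in cKO (SE 0.32, limma adjusted p = 6.77e-05), Serpinb7 by -2.32 (SE 0.47, limma adjusted p = 0.0032) and Serpinb2 by -2.15 (SE 0.45, limma adjusted p = 0.00389). Without cKO replicates 2 and 3 these were 4.20, -3.57 and -3.25, against 4.04, -3.58 and -4.18 in WT. Serpinh1 differed by 1.29 (limma adjusted p = 2.36e-04) and Serping1 by 0.93 (limma adjusted p = 0.00111), or by 1.59 and 1.24 without those arrays. Serpinb8 differed by 0.49 (limma adjusted p = 6.45e-04) and the dim Serpinb6c by -0.55 (limma adjusted p = 0.00526), or by 0.65 and -0.80 without them. Serpina3n differed by 0.60 in cKO (SE 0.18, limma adjusted p = 0.0219), against 2.55 in WT, and the cKO value was 0.71 without those arrays (limma adjusted p = 0.128).

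The 3 genes called in the cKO comparison and not in WT were the dim Serpinb9 (0.30, limma adjusted p = 0.00606), Serpina6 (0.23, limma adjusted p = 0.0064) and Serpina3a (0.22, limma adjusted p = 0.0139). Without cKO replicates 2 and 3 none of the 3 was called, at 0.34, 0.21 and 0.14. Probe sets of 5 genes differed in call here. Serpinf1 was at 0.49 on its second probe set (limma adjusted p = 0.00304 over all probe sets) and 0.10 on the one used, Serpinb1a at 0.35 (limma adjusted p = 0.0162) and -0.04, Serpinb5 at -0.30 (limma adjusted p = 0.0456) and -0.14, and Serpinb3a at 0.21 (limma adjusted p = 0.043) and -0.03. For Serpinb9 the second probe set gave 0.09 and was not called (limma adjusted p = 0.0863).

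Proteases of several kinds with some related genes, and protease inhibitors other than serpins, were examined in lists. Whether serpins act on the listed proteases in these cells was not tested. The counts between the WT compartments are to be read against the 35.1% of all genes called there. Of 11 kallikrein and plasminogen system genes measured, 5 were lower in bulge WT than in IFE WT and 0 higher, with a median of -0.68 against -0.01 over all genes. They included the kallikrein Klk11 (-3.39), the thrombin receptor F2r (-2.66) and the kallikrein Klk8 (-2.08). Of 12 membrane and secreted epidermal serine proteases, 3 were higher and 4 lower in bulge WT, the largest differences being those of Tmprss4 (-2.83), Htra1 (-1.11) and Tmprss13 (-0.97). Of 18 cathepsins and granule proteases, 4 were higher and 2 lower (33.3% called, close to the share of all genes), with Ctsc, which activates granule proteases, at -2.49, Ctsz at 2.38 and Ctsh at -0.79. Of 6 caspases, 1 was higher and 3 lower, among them Casp4 (-3.82) and Casp14 (-3.10), the caspase of the cornifying layers. Among 24 protease inhibitors other than serpins, the metalloprotease inhibitor Timp2 was higher in the bulge (4.47) and 4 were lower, among them Stfa3 (-2.48) and Csta1 (-1.49) of the cystatin superfamily; the 5 called are 20.8% of this list, below the share of all genes.

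In bulge cKO against bulge WT, where 3.84% of all genes were called and 25.7% had an unadjusted p under 0.05 with limma, 1 of the 11 kallikrein and plasminogen genes rose, Klk11, by 1.98 (limma adjusted p = 0.0188), and the list's median was 0.13. None of the 12 membrane proteases was called, though 5 had an unadjusted p under 0.05 with limma. Ctsh rose by 0.60 (limma adjusted p = 0.0461), as the only one of its list of 18. Of the 6 caspases 3 rose: Casp1 by 0.80 (limma adjusted p = 0.00151), Casp4 by 2.17 (0.0285) and Casp14 by 2.32 (0.0373). Of the 24 other inhibitors 3 rose and 0 fell: the cystatins Stfa3, by 1.89 (limma adjusted p = 0.0104), and Cstb, by 0.52 (0.0229), and the tissue factor pathway inhibitor Tfpi, by 0.45 (0.00594). In the IFE, Casp1 rose by 0.82 (limma adjusted p = 0.00192), and none of the other genes of these lists was called. The mean of the 11 kallikrein and plasminogen genes over the bulge cKO replicates in order was 6.08, 6.97, 6.85 and 6.40, with 5.95 to 6.10 in bulge WT, so replicates 2 and 3 were again the highest. Whether the calls in these lists hold without replicates 2 and 3 is not given here.

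**Figure D4:**
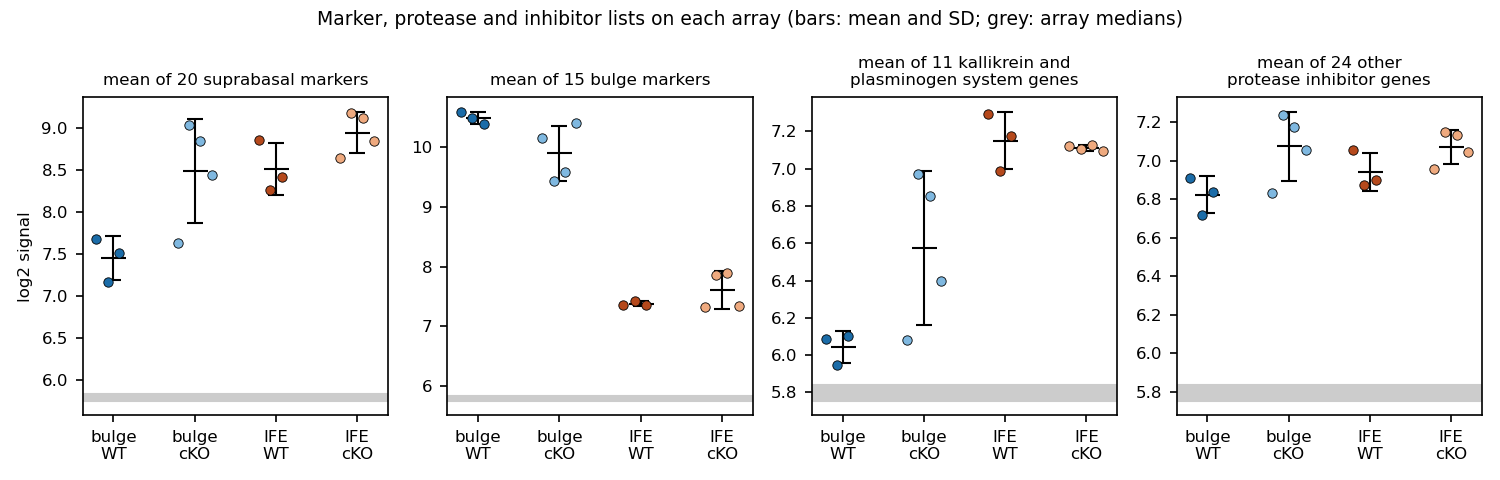
Mean log2 signal of the suprabasal and bulge markers, the kallikrein and plasminogen system genes and the protease inhibitors other than serpins on each array (points), with mean and SD as bars and array medians in grey; scales differ between panels. Bulge cKO replicates 2 and 3 are the highest of their group for suprabasal markers, at 9.04 and 8.84, and the lowest for bulge markers, at 9.44 and 9.59.

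Markers of other cells moved with the bulge comparison in part, to be read against the same shares of all genes (3.84% called, 25.7% with an unadjusted p under 0.05). Of 11 Langerhans and antigen presenting cell markers 4 rose in bulge cKO, led by the MHC class II gene H2-Ab1 (2.35), with a list median of 0.48. Their mean lay between 6.10 and 6.28 in bulge WT and between 6.52 and 7.06 in bulge cKO, while Cd207, Aif1, Ptprc and Cd86 were below the array medians in every group. Of 9 T cell markers 0 were called, but 7 had an unadjusted p under 0.05 with limma, and their mean lay between 5.31 and 5.52 in bulge WT and between 5.55 and 6.35 in bulge cKO. Of 20 suprabasal markers 3 rose (Casp14, Sprr1a and Ovol1), as did 1 of 8 wound and stress markers (Hbegf) and 1 of 6 sebaceous gland markers. The suprabasal list had a median of 1.03, and 14 of the 20 had an unadjusted p under 0.05 with limma. Wound and stress markers had a median of 0.76, with 5 of 8 under 0.05, and sebaceous gland markers 0.29, with 3 of 6. None of the 15 bulge markers was called, but all 15 lay below 0, with a median of -0.52 and 8 under 0.05. Mast cell and neutrophil, endothelial, fibroblast and melanocyte markers had 0 of 9, 1 of 8, 0 of 9 and 0 of 6 called, and 7, 7, 5 and 3 of them were below the array medians in every group. Serpinb9 and Serpina3n are also known from cells outside the epithelium, and the part of such cells in their values was not tested.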

How the data were processed

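Per the labels, TRizol-extracted RNA of the 14 samples was amplified as cDNA and biotinylated before hybridisation. The authors deposited log2 signals for each probe set, made with RMA, which corrects background, equalises the arrays' distributions and summarises the probes of a set, per the submitters' processing notes. Its version is not stated there. Of 45141 probe sets, 28898 had a single gene symbol, 551 several and 15692 none, and the last groups were left out; 28689 took the symbol of the RefSeq annotation (GRCm38.p6). The 55 serpin probe sets gave 40 genes, and 11 of these were read from probe sets of a type (x_at, s_at or a_at) that can detect several transcripts.

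All arrays entered 1 model with a mean per group, fitted across 17097 genes by lmFit and eBayes of limma 3.58.1 under R 4.3.3 (10 residual degrees of freedom, two-sided). The labels state no model. Arrays of a group correlated at 0.982 to 0.998. The model was run on simulated data with independent noise on each array and shifts added in bulge cKO. That simulation held no arrays that stand apart together, so it does not address cKO replicates 2 and 3. The members, the lists and the promoter motifs were chosen with earlier results of these data known. Named were members called between cKO and WT or for the difference of effects, up to 6 called members per clade between compartments, and members whose probe sets disagreed; from each list, up to 4 genes called between cKO and WT and, for proteases and inhibitors, up to 3 between WT compartments. Values per array were given for the members called between cKO and WT, the 5 with the largest WT compartment difference, and those said to be chosen by their values. The labels do not say whether the replicate numbers pair the samples, and the main model did not use them as a block. Alternatives changed the scaling (cyclic loess or centring on medians), the choice of probe sets (dim ones filtered out, their mean, the largest interquartile range, or each by itself), the variance model (an intensity trend, or weights per array), the samples (only the compared groups, each replicate left out, cKO replicates 2 and 3 left out of both compartments), the threshold (adjusted p under 0.1, or a 1.5-fold minimum) and the replicate block. Promoter letters were searched in the 200 bases before each start in the RefSeq promoter table. Figures were drawn with matplotlib 3.10.9.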

Additional observations from a re-analysis of the deposited data

Results flagged for a closer look

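The knockout effect on Serpina3n differed between bulge and IFE cells by -1.95 in log2 signal (SE 0.27, limma adjusted p = 0.0228), with 4 of 4 bulge cKO arrays and 4 of 4 IFE cKO arrays below the WT arrays of their compartment. It was the difference of effects itself that passed the test, in this 1 of 40 serpin genes (2.5%, against 0.105% of all genes). The call was lost under 9 of 26 alternatives. In the IFE the WT arrays, at 5.12 to 5.32, already lay below the array medians, which leaves little room for a fall there. For 14 named serpin genes, 28 groups of 4 arrays were examined for an array far from the others, and 0 had one by Dixon's test. Not all of these genes are given per array above. The test looks for a single far array, so it does not address a pair of arrays that lie apart together.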

How the results depend on the processing

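Of 28 differences of named serpin genes under 559 alternatives in all, 496 kept their direction and their side of the threshold, 54 lost the call, 9 gained one and 0 changed direction. Some alternatives could not change the outcome, so these counts are no measure of robustness. An adjusted p under 0.1 loses no call, and the choice of probe sets changes no value of a gene with 1 probe set. The counts also include the array weights described below. The 4 serpin genes called in bulge cKO against WT became 1 with the filter on dim probe sets, with only the groups compared and without cKO replicates 2 and 3, 2 with the fold minimum of 1.5, 8 at an adjusted p under 0.1 and 24 with array weights. Leaving out single replicates gave 1 to 10, and Serpina3n was among the calls each time. In the IFE the count of 0 became 1 with array weights and stayed at 0 to 0 without single replicates. The 1 call for the difference of effects became 13 with array weights and 0 without cKO replicates 2 and 3, and lay between 0 and 2 without single replicates. It was lost without bulge cKO replicate 2 or 3, bulge WT replicate 2, IFE cKO replicate 1 or 3, or IFE WT replicate 1 or 2. The 10 calls between WT compartments ranged from 9 to 11 without single replicates, and the 11 in cKO from 10 to 13, and the latter were 7 with the dim filter, 6 with the fold minimum and 28 with array weights. The array weights did not converge, and bulge cKO replicate 3 received a weight of 15.5.

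Over all genes the 656 calls in the bulge were 8242 with array weights, 72 with only the groups compared and 80 without cKO replicates 2 and 3. Median centring moved the share of these calls that were higher from 51.7% to 41.5%, and left the serpin split at 3 higher and 1 lower. With the replicate block the 4 bulge serpin calls became 2 (Serpina3n and Serpina6), the difference of effects 0, the IFE stayed at 0, and the compartments gave 9 and 11; over all genes the bulge calls became 412. The deviations of same-numbered arrays correlated at 0.251, 0.0359 and 0.144 between bulge WT and IFE WT, at -0.0285, 0.11, -0.57 and 0.151 between bulge cKO and IFE cKO, and at -0.616 to 0.181 between WT and cKO. The labels give no shared source and not every correlation is above 0.1, so the numbers were not taken as pairs. These correlations cannot show that pairs are absent. On the first principal component, cKO replicates 2 and 3 moved in opposite directions in bulge and IFE, which lowers a correlation whether or not the arrays share a source.

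With 3 or 4 arrays per group, uncalled members are not shown to be unchanged. Whether the signal of the 25 members below the array medians in every group lay above background was not tested.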
